A study of Mus musculus with 10 samples.

Results

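A set of 10 genes of the Notch pathway was followed in the developing mouse spinal cord, namely 3 receptors (*Notch1*, *Notch2*, *Notch3*), 5 ligands (*Dll1*, *Dll3*, *Dll4*, *Jag1*, *Jag2*) and 2 Hes genes (*Hes1*, *Hes5*). They were picked by name, as the rows of the count table whose Ensembl identifiers map to these symbols, and all 10 were found among 54146 genes. RNA of the lumbar spinal cord was sequenced from single embryos at E12.5, with the dorsal root ganglia left in place. Litter 1 gave 3 controls and 3 *Dot1l*-cKO embryos and litter 2 gave 2 of each, and the embryos of a group are always listed in the same order. The *Dot1l*-cKO embryos of both litters were Wnt1cre2/+; *Dot1l* fl/fl, in the strain B6.Cg-E2f1Tg(Wnt1-cre)2Sor/J. Controls carried no transgene; they were *Dot1l* fl/fl in litter 1 and *Dot1l* fl/+ in litter 2. The Cre is driven by *Wnt1* sequences, known for the dorsal neural tube and the neural crest, and which cells of the cord had lost *Dot1l* cannot be read from bulk RNA. *Dot1l* encodes the H3K79 methyltransferase. The 2 questions of the design are whether the Notch genes differ between *Dot1l*-cKO and control littermates, and whether they differ between litters.

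Notch signalling passes between touching cells. A Delta-like or Jagged ligand on one cell binds a Notch receptor on its neighbour, the receptor is cut by ADAM proteases and gamma-secretase, and its freed intracellular domain joins RBPJ and Mastermind-like proteins on DNA. In the neural tube the best known outcome is lateral inhibition: cells that leave the cycle to become neurons show ligand, and the progenitors that receive the signal transcribe *Hes1* and *Hes5*, repressors of proneural genes such as *Neurog2*. The same receptors and ligands also act in vessels, where *Dll4* and *Jag1* are ligands of endothelial cells and *Notch3* is a receptor of mural cells.

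*Hes5* is the textbook direct target among these genes, and its promoter is shown because it was the only one among the members with a match to the core RBPJ motif GTGGGAA. RefSeq promoter windows, which run from 250 bases before to 50 bases after a start site on GRCm38.p6, were found for 9 of the 10 members, in 10 windows. *Hes1* had no window in the table used. The motif was searched on both strands, its reverse being TTCCCAC. *Hes5* held 2 matches, which start 226 bases before the start site on the minus strand and 83 bases before it on the plus strand. Of all 32851 windows of this length, 6.38% held at least 1 match, 0.256% held 2 or more and 0.1% held a match on each strand. A match is a string of letters and not a measured site of binding. The 250 bases before the *Hes5* start at chr4:154960673-154960922, plus strand, are given with both matches in capitals.

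Hes5 promoter: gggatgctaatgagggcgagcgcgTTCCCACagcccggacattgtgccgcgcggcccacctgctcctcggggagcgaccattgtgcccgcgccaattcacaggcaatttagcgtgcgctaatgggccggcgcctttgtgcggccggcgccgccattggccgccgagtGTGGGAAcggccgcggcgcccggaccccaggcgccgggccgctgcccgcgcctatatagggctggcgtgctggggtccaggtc

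The gene bodies, on GRCm38 with GENCODE annotation, lie on 7 chromosomes. *Notch1* is at chr2:26457903-26516663 on the minus strand, *Notch2* at chr3:98013527-98150361 on the plus strand and *Notch3* at chr17:32120820-32166852 on the minus strand. Of the ligands, *Dll1* is at chr17:15367354-15376872 (minus), *Dll3* at chr7:28293553-28302238 (minus), *Dll4* at chr2:119325784-119335962 (plus), *Jag1* at chr2:137081456-137116644 (minus) and *Jag2* at chr12:112907819-112929776 (minus). *Hes1* is at chr16:30064384-30067796 and *Hes5* at chr4:154960923-154962371, both on the plus strand. Exons of *Notch1*, *Notch3*, *Dll1*, *Dll4* and *Hes5* are overlapped by an annotated gene on the opposite strand. Whether reads were counted by strand is not stated in the sources used here. The overlaps may therefore raise or lower the values of these 5 genes. *Notch2* shares 541 exon bases with an annotated gene on its own strand. *Jag1*, *Dll4* and *Notch1* share chromosome 2 with *E2f1*, where the strain name places the transgene, at 17.4, 35.2 and 128 Mb from it.

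Total counts on genes lay between 40949585 and 68928443 per embryo, and all 10 members passed the expression filter together with 19773 genes in all. Levels are CPM, reads of a gene scaled to a library of fixed size after TMM normalization, and the members rest on 262 to 704 reads per embryo for *Dll4*, the lowest, and on 8595 to 18433 for *Notch1*, the highest. The tissue carried its labelled identity: the lumbar genes *Hoxa10*, *Hoxc10* and *Hoxd10* lay between 114 and 201 CPM in all embryos, and the forebrain genes *Emx1*, *Emx2* and *Otx2* stayed at or below 0.300 CPM. Whole-gene *Dot1l* counts did not fall in the *Dot1l*-cKO (0.17 ± 0.06 on the log2 scale, SE, with an adjusted p of 0.130 by edgeR), and they do not check the genotype, since a deletion of some exons need not lower them. Both *Dot1l*-cKO embryos of litter 2 stood apart in the sex-linked genes, with 6.00 and 6.79 CPM of *Xist* and 41.5 and 46.7 CPM of the Y-linked *Ddx3y*. The other 8 embryos had 499 to 890 CPM of *Xist* and at most 0.242 CPM of *Ddx3y*. Within litter 2, therefore, the genotype and this difference cannot be told apart.

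Among the members, per kilobase of annotated exon, *Hes5* and *Dll1* stood highest and *Dll4* lowest. Levels per kilobase, as the mean of the 10 embryos ± SD, were 21.8 ± 8.41 CPM for the repressor gene *Hes5* and 20.8 ± 6.45 for *Dll1*, the main Delta ligand of differentiating neuroblasts. *Notch1* (16.8 ± 4.63) and *Notch3* (15.9 ± 3.28) came next, then *Dll3* (12.49 ± 3.43) and *Jag1* (11.7 ± 1.29). *Hes1* (8.38 ± 1.11), *Notch2* (7.95 ± 0.910) and *Jag2* (7.81 ± 1.76) formed a lower set, and *Dll4* stood at 2.57 ± 0.445. Neighbours in this order were compared embryo by embryo. *Notch3* exceeded *Dll3*, *Jag1* exceeded *Hes1* and *Jag2* exceeded *Dll4* in 10 of 10 embryos, and *Dll1* exceeded *Notch1* in 9 of 10. The steps from *Notch1* to *Notch3*, *Hes1* to *Notch2* and *Notch2* to *Jag2* held in 6 of 10. *Hes5* stood above *Dll1* in 5 of 5 *Dot1l*-cKO embryos, at 1.05 to 1.31 times its level per kilobase, and in 0 of 5 controls, at 0.803 to 0.955 times. Of the 45 pairs of members, 1 thus had ratios that did not overlap between the genotypes over all 10 embryos, against 2.04% of all pairs of genes above 0 in every embryo, which is near the background. The pair was picked after its values were seen and was not tested, and neither gene passed the test for the genotype. *Dll3* stood above *Jag1* in 4 of 4 embryos of litter 2 and in 1 of 6 of litter 1. Exon length was taken over all annotated isoforms, which lowers the value of genes with long rare isoforms.

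**Figure D1:**
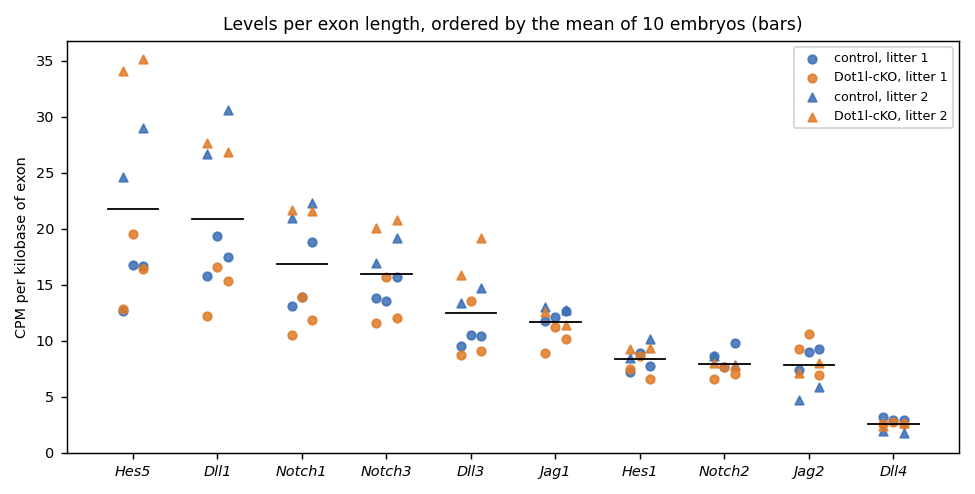
Level of each Notch gene in CPM per kilobase of exon (linear axis) in the 10 embryos, ordered by the mean (black bars). Colours mark the genotype and shapes the litter, and the triangles of litter 2 lie above the circles of litter 1 for *Hes5* and *Dll1*, whose means are 21.8 and 20.8, while *Dll4* stays at the bottom with a mean of 2.57.

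Between *Dot1l*-cKO and control embryos of both litters, none of the 10 Notch genes passed the test of edgeR. DESeq2's Wald test called 1 of them, *Jag1*. With the litter in the model, the quasi-likelihood test of edgeR, adjusted over all genes by Benjamini-Hochberg, called 0 of 10 members at 0.05, where 2.99% of all 19773 genes were called. At an unadjusted p below 0.05 there were 3, namely *Notch2*, *Dll1* and *Jag1*, all lower in the *Dot1l*-cKO, where 21.7% of all genes were below it. Log2 fold changes ran from -0.21 to 0.24, with a median of -0.03 against -0.01 over all genes, and 6 of 10 were negative. With *Xist* as a covariate they ran from -0.34 for *Notch1* to 0.0717 for *Hes5*, which had been -0.20 and 0.20, and *Jag2* went from 0.24 to 0.0387. With 1 embryo left out, *Notch1* ranged from -0.25 to -0.0873 and *Jag2* from 0.16 to 0.35. Over all 10 embryos the 2 genotypes overlapped for every member, while 1.93% of all genes had no overlap.

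The smallest adjusted p belonged to *Jag1*, a Jagged ligand of progenitor stripes in the neural tube and of vessels. The paper, which used DESeq2 and controlled for the litter, names *Jag1* among the genes that decreased in the *Dot1l*-cKO. *Jag1* stood at 68.6, 70.6 and 73.6 CPM in the controls of litter 1 and at 52.0, 65.2 and 59.3 CPM in their *Dot1l*-cKO littermates. Litter 2 had 75.7 and 74.4 CPM in controls and 73.5 and 66.3 CPM in the *Dot1l*-cKO. Every *Dot1l*-cKO value thus lay below every control value of its own litter, which 4.15% of all genes shared in this direction, although the highest *Dot1l*-cKO of litter 2 lay among the controls of litter 1. The log2 fold change was -0.20 with a standard error of 0.06 (adjusted p = 0.0840, edgeR), while DESeq2's Wald test with the same model, which called 8.3% of the genes it tested, gave an adjusted p of 0.0411. Within litter 1 it was -0.27 ± 0.08 (adjusted p = 0.121), and within litter 2 it was -0.10 ± 0.09 (adjusted p = 0.601), or -0.17 and -0.0313 without the first and the second *Dot1l*-cKO embryo of that litter.

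**Figure D2:**
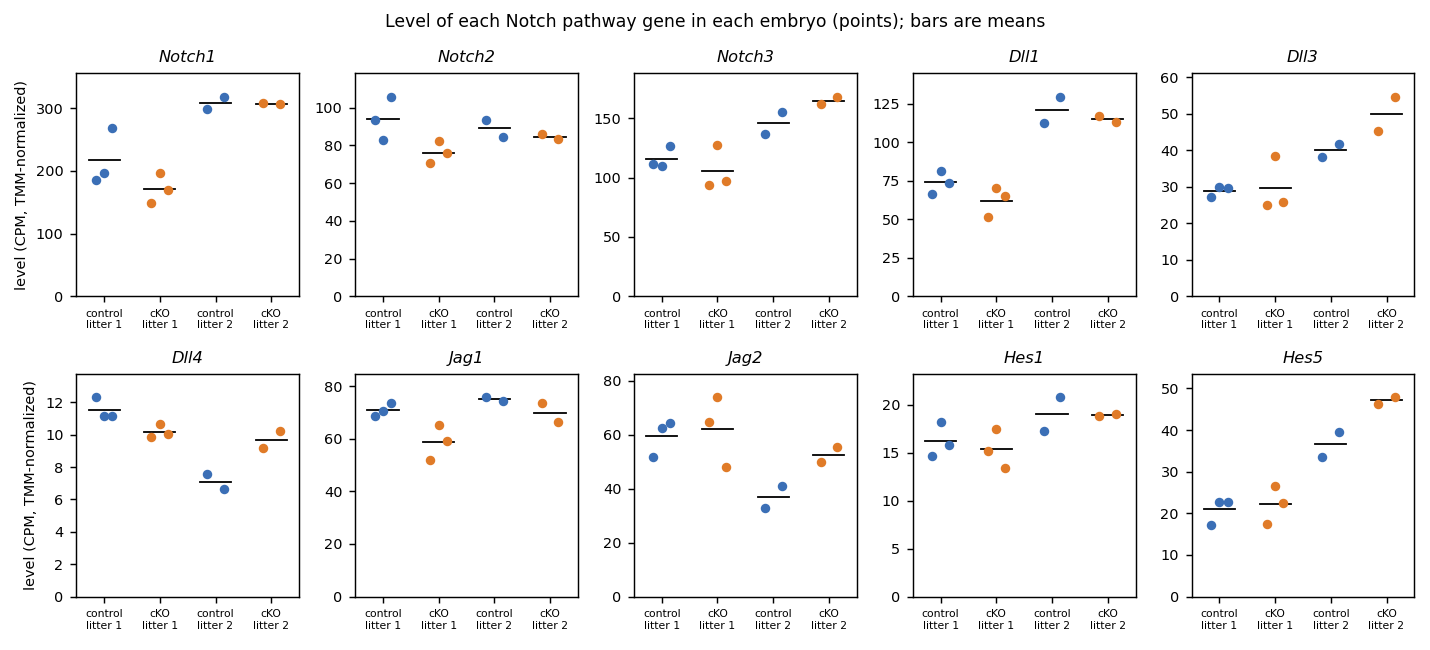
CPM of the 10 Notch genes (linear axes from 0, one panel a gene) in each embryo (points) of the 4 groups of genotype and litter, with the mean of each group as a bar. *Jag1* of the *Dot1l*-cKO lies below the controls within both litters, *Hes5* and *Dll1* are higher in litter 2 than in litter 1 in every embryo, and *Dll4* is lowest in the litter 2 controls at 7.55 and 6.63 CPM.

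Among the receptors, *Notch1* and *Notch2* were lower in the *Dot1l*-cKO of litter 1 without passing the test, and in litter 2 they lay close to the controls. *Notch1*, the main receptor of neural progenitors, stood at 186, 197 and 268 CPM in the controls of litter 1 and at 149, 197 and 169 CPM in the *Dot1l*-cKO. In litter 2 it stood at 298 and 318 CPM in controls and at 308 and 307 CPM in the *Dot1l*-cKO. The groups overlapped in both litters, and litter 1 gave a log2 fold change of -0.34 ± 0.12 (SE, adjusted p = 0.202, edgeR) and litter 2 one of -0.00 ± 0.15 (adjusted p = 0.995). Without the third control of litter 1, at 268 CPM, the litter 1 value was -0.16. *Notch2*, a receptor with broad expression in the embryo, stood at 93.3, 82.8 and 106 CPM in controls of litter 1 and at 70.6, 82.1 and 75.8 CPM in the *Dot1l*-cKO. The litter 2 values were 93.4 and 84.6 CPM in controls and 85.9 and 83.2 CPM in the *Dot1l*-cKO. The groups of litter 1 did not overlap, though the nearest values, 82.8 and 82.1, almost touched, and those of litter 2 did. The log2 fold change of *Notch2* in litter 1 was -0.30 ± 0.08 (adjusted p = 0.116, edgeR), that in litter 2 was -0.07 ± 0.10 (adjusted p = 0.748) and that over both was -0.21 ± 0.07 (adjusted p = 0.107).

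*Notch3*, which is made by progenitors and by the mural cells of vessels, gave opposite signs in the litters and passed in neither. Its values were 112, 109 and 127 CPM in controls of litter 1 and 93.6, 127 and 96.9 CPM in the *Dot1l*-cKO, where 1 embryo reached the top of the controls. In litter 2 the controls had 137 and 155 CPM and the *Dot1l*-cKO embryos 162 and 168 CPM, with no overlap. Litter 1 gave a log2 fold change of -0.13 ± 0.10 (adjusted p = 0.587, edgeR) and litter 2 one of 0.18 ± 0.13 (adjusted p = 0.498). The litter 1 value was -0.29 without the second *Dot1l*-cKO embryo (adjusted p = 0.0565) and -0.0446 without the first, and that of litter 2 was 0.0955 without the first control and 0.27 without the second.

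Of the Delta ligands, *Dll1* leaned lower and *Dll3* higher in the *Dot1l*-cKO, both within the spread. *Dll1* stood at 66.4, 81.5 and 73.7 CPM in controls of litter 1 and at 51.4, 70.0 and 64.8 CPM in the *Dot1l*-cKO. In litter 2 there were 113 and 129 CPM in controls and 117 and 113 CPM in the *Dot1l*-cKO. The genotypes overlapped in both litters, and the fold change over both was -0.18 ± 0.08 on the log2 scale (adjusted p = 0.222, edgeR), and -0.0996 without the first *Dot1l*-cKO embryo of litter 1. *Dll3*, a divergent Delta protein that is held inside the cell and does not activate receptors on neighbours, stood at 27.1, 29.9 and 29.7 CPM in controls of litter 1 and at 24.9, 38.5 and 25.9 CPM in the *Dot1l*-cKO. Litter 2 showed 38.2 and 41.8 CPM in controls and 45.3 and 54.6 CPM in the *Dot1l*-cKO. In litter 1 a single *Dot1l*-cKO embryo lay above the controls and the other 2 below them, while in litter 2 both lay above, and the log2 fold change over both litters was 0.15 ± 0.11 (adjusted p = 0.446). It was 0.0504 without the second *Dot1l*-cKO embryo of litter 1, 0.0881 without the second of litter 2, and 0.0355 with *Xist* as a covariate.

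*Dll4*, best known as the ligand of endothelial tip cells and also made by some interneuron progenitors, had opposite signs in the litters. It passed the edgeR test in neither, and its interaction did not pass (adjusted p = 0.323, edgeR). In litter 1 it stood at 12.3, 11.2 and 11.2 CPM in controls and at 9.89, 10.6 and 10.0 CPM in the *Dot1l*-cKO, lower without overlap. Litter 2 had 7.55 and 6.63 CPM in controls and 9.18 and 10.2 CPM in the *Dot1l*-cKO, higher without overlap. The *Dot1l*-cKO values of the litters lay close together, and it was the controls that stood apart. On the log2 scale *Dll4* differed by -0.18 ± 0.10 within litter 1 (adjusted p = 0.391, edgeR) and by 0.45 ± 0.12 within litter 2 (adjusted p = 0.133), where DESeq2 called it (adjusted p = 0.0406). *Jag2*, the other Jagged ligand, was also at its lowest in the litter 2 controls. It stood at 51.6, 62.3 and 64.2 CPM in controls of litter 1 and at 64.7, 73.8 and 48.1 CPM in the *Dot1l*-cKO. In litter 2 it stood at 32.9 and 41.04 CPM in controls and at 49.7 and 55.5 CPM in the *Dot1l*-cKO. The genotypes overlapped in litter 1, where 1 *Dot1l*-cKO embryo was lowest of all 6, and not in litter 2, and *Jag2* differed by 0.07 ± 0.14 within litter 1 (adjusted p = 0.873, edgeR) and by 0.51 ± 0.17 within litter 2 (adjusted p = 0.171).

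The 2 Hes genes did not pass the test either. *Hes1* stood at 14.7, 18.2 and 15.8 CPM in controls of litter 1 and at 15.2, 17.5 and 13.4 CPM in the *Dot1l*-cKO. The litter 2 values were 17.3 and 20.8 CPM in controls and 18.8 and 19.1 CPM in the *Dot1l*-cKO. *Hes1* was among the steadiest members, with overlap in each litter and a log2 fold change of -0.05 ± 0.09 (adjusted p = 0.789, edgeR) over both. *Hes5* stood at 17.2, 22.8 and 22.7 CPM in controls of litter 1 and at 17.5, 26.6 and 22.4 CPM in the *Dot1l*-cKO. In litter 2 there were 33.6 and 39.5 CPM in controls and 46.4 and 47.8 CPM in the *Dot1l*-cKO. The genotypes overlapped in litter 1 and not in litter 2, with log2 differences of 0.08 ± 0.14 (adjusted p = 0.842, edgeR) and 0.37 ± 0.17 (adjusted p = 0.286).

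Within litter 1 the test called 0 of 10 members, where 0.612% of all genes were called, and 4 had an unadjusted p below 0.05 (*Notch1*, *Notch2*, *Dll1* and *Jag1*, all lower), as did 15.4% of all genes. DESeq2 called *Notch2* and *Jag1*, and 3.98% of the genes it tested. The 2 genotypes did not overlap for *Notch2*, *Dll4* and *Jag1*, all lower, where 9.47% of all genes were lower without overlap. Within litter 2 the test again called 0 of 10, where 0.202% of all genes were called, and 3 had an unadjusted p below 0.05 (*Dll4*, *Jag2* and *Hes5*, all higher), as did 17.1% of all genes. Of the members DESeq2 called *Dll4* alone, and 3.58% of the genes it tested. A fit of the 4 embryos of litter 2 by themselves called *Jag2* (adjusted p = 0.0113) and *Hes5* (adjusted p = 0.0281), and 5.13% of its genes. Without overlap in litter 2 were 5 of 10 members higher (*Notch3*, *Dll3*, *Dll4*, *Jag2* and *Hes5*), against 24.2% of all genes, and 1 of 10 lower (*Jag1*), against 27.5%. In both directions together these are 6 of 10 members, against 51.7% of all genes.

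The difference between the genotype effects of the litters was tested as an interaction, and 0 of 10 members passed, where 0.0101% of all genes did. All 10 interaction terms were positive, from 0.07 for *Hes1* to 0.63 for *Dll4*, with a median of 0.28 against -0.01 over all genes, and without the first control of litter 2 that of *Hes1* was -0.0524. The members share embryos and reads of one tissue, and their common sign is a description. *Dll4* alone had an unadjusted p below 0.05 (0.63 ± 0.15, adjusted p = 0.323, edgeR), as did 8.19% of all genes, and 92.8% of all genes had a lower interaction term. Of the marker lists, with 48.5% of terms positive over all genes, the terms were positive for 10 of 10 endothelial markers (median 0.46). They were also positive for 6 of 6 markers of neural crest glia (median 0.62) and 9 of 10 of dorsal root ganglion neurons (median 0.69). For mesenchyme 7 of 8 were positive (median 0.51), with 0 called in each of these lists. The ganglion list shares *Tubb3* with the neuronal list. FOXD3, whose gene is in the glial list, also marks cord interneurons in the paper. Positive terms were fewer for neural progenitors (3 of 9, median -0.07), neurons (6 of 10, median 0.01) and cycling cells (5 of 8, median 0.08). Of the genes of the spinal cord and lumbar level 1 of 6 was positive (median -0.12). For mural cells 6 of 7 were positive, for blood 6 of 6 and for microglia and macrophages 5 of 6. None of these was called. The part of all these lists in the values of the Notch genes was not tested. In such bulk RNA, fewer cells of a type and less RNA per cell cannot be told apart.

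Between the litters, 7 of 10 Notch genes were called in controls and 5 of 10 in the *Dot1l*-cKO. With 1 embryo of litter 1 left out, 4 to 7 and 5 to 7 were called. Between the controls, litter 2 was called higher than litter 1 in *Notch1*, *Notch3*, *Dll1*, *Dll3* and *Hes5* and lower in *Dll4* and *Jag2*, where 24.2% of all genes were called, 11.9% higher and 12.3% lower. Between the *Dot1l*-cKO embryos, *Notch1*, *Notch3*, *Dll1*, *Dll3* and *Hes5* were again higher in litter 2 and no member was called lower, where 21.3% of all genes were called and 10% were called higher. *Notch2*, *Jag1* and *Hes1* passed in neither comparison. The 2 comparisons use different embryos of the same 2 litters. Each litter is a single litter, so the p-values measure the spread between littermates and not between litters, and the difference between the controls cannot be told apart from their number of floxed alleles, 2 in litter 1 and 1 in litter 2. That number was the same in both litters for the *Dot1l*-cKO, but there the litter cannot be told apart from the difference in *Xist* and *Ddx3y*, which also enters the interaction. The number of floxed alleles of the controls enters the interaction too, and in litter 2 it differs between the genotypes.

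*Hes5* was higher in litter 2 by 0.80 ± 0.15 on the log2 scale in controls (SE, 1.75-fold, adjusted p = 0.00230, edgeR) and by 1.09 ± 0.15 in the *Dot1l*-cKO (2.13-fold, adjusted p = 0.000357), with the lowest embryo of litter 2 at 33.6 CPM and the highest of litter 1 at 26.6 CPM. *Hes1* differed by 0.23 ± 0.13 in controls (adjusted p = 0.212) and 0.30 ± 0.12 in the *Dot1l*-cKO (adjusted p = 0.106). Its value in controls was 0.36 without the first control of litter 2 and 0.0968 without the second. *Hes1* was called higher in litter 2 in the litter term of the additive model (0.27, adjusted p = 0.0284) and, in the *Dot1l*-cKO, without the second embryo of litter 1 (0.41, adjusted p = 0.0249). Whether the 2 Hes genes differ in their response was not tested. The ratio of *Hes5* to *Hes1* CPM was 1.17 to 1.44 in the litter 1 controls and 1.90 to 1.94 in the litter 2 controls, and 1.15 to 1.67 and 2.47 to 2.51 in the *Dot1l*-cKO.

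*Dll1* was higher in litter 2 by 0.71 ± 0.11 in controls (1.64-fold, adjusted p = 0.000758, edgeR) and by 0.89 ± 0.11 in the *Dot1l*-cKO (1.85-fold, adjusted p = 0.000228). The lowest litter 2 value, 113 CPM, stood well above the highest of litter 1, 81.5 CPM. *Dll3* was higher by 0.47 ± 0.15 (adjusted p = 0.0395) and 0.75 ± 0.15 (adjusted p = 0.00348), but 1 *Dot1l*-cKO embryo of litter 1, at 38.5 CPM, reached the lower litter 2 control at 38.2 CPM. The call in controls was lost without any single one of the 5 controls (adjusted p 0.0660 to 0.236), and that in the *Dot1l*-cKO was lost without the second *Dot1l*-cKO embryo of litter 2 (adjusted p = 0.0608).

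*Notch1* was higher in litter 2 by 0.50 ± 0.14 in controls (1.42-fold, adjusted p = 0.0164, edgeR) and by 0.84 ± 0.13 in the *Dot1l*-cKO (1.79-fold, adjusted p = 0.000875). *Notch3* was higher by 0.33 ± 0.11 (1.26-fold, adjusted p = 0.0497) and 0.64 ± 0.11 (1.56-fold, adjusted p = 0.00159). Both receptors lay above all litter 1 embryos in all litter 2 embryos, as did *Dll1* and *Hes5*, so 4 of 10 members were higher in litter 2 without overlap over all 10 embryos, against 11.9% of all genes. In controls the calls of both receptors were lost without the first or the second control of litter 1 and without either control of litter 2, and that of *Notch3* also without either *Dot1l*-cKO embryo of litter 2 and with limma-voom. The third receptor, *Notch2*, differed by -0.08 ± 0.09 (adjusted p = 0.603) and 0.15 ± 0.09 (adjusted p = 0.288).

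*Dll4* and *Jag2* went the other way in controls. *Dll4* was lower in litter 2, at 0.614 times the litter 1 level (-0.70 ± 0.11, adjusted p = 0.000690, edgeR) and *Jag2* at 0.621 times that level (-0.69 ± 0.16, adjusted p = 0.00676), the latter call being lost without the first control of litter 2 (adjusted p = 0.0923). In the *Dot1l*-cKO they differed by -0.07 ± 0.11 (adjusted p = 0.704) and -0.24 ± 0.15 (adjusted p = 0.301). There *Jag2* was called lower without the third embryo of litter 1 (-0.40, adjusted p = 0.0395) and without the expression filter (adjusted p = 0.0252), and was at -0.0952 without the second. The interaction that compares these differences did not pass for either gene (adjusted p = 0.323 and 0.618). The ratio of *Dll1* to *Dll4* CPM was thus 5.40 to 7.29 in the litter 1 controls and 14.9 to 19.5 in the litter 2 controls, against 5.19 to 6.58 and 11.1 to 12.7 in the *Dot1l*-cKO. *Jag1* differed by 0.08 ± 0.09 in controls (adjusted p = 0.537) and 0.25 ± 0.08 in the *Dot1l*-cKO (adjusted p = 0.0534), where it was called higher by DESeq2, as one of 25.4% of genes called, and by edgeR with DESeq2's size factors (adjusted p = 0.0483), without the expression filter (adjusted p = 0.0196) and without the second embryo of litter 1 (0.33, adjusted p = 0.00764). Without the first embryo of litter 1 it was 0.16 (adjusted p = 0.186).

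**Figure D3:**
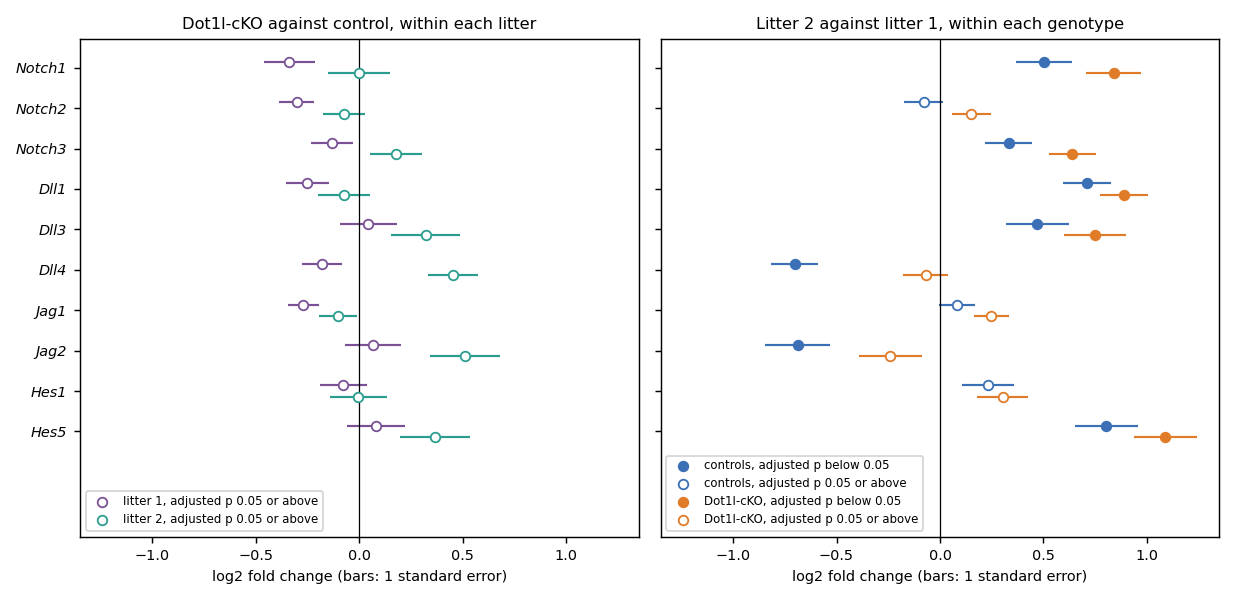
Log2 fold change of each Notch gene (horizontal axis) with 1 standard error, for *Dot1l*-cKO against control within each litter (left) and for litter 2 against litter 1 within each genotype (right). Filled points have an adjusted p below 0.05: there are none on the left, 7 for controls and 5 for the *Dot1l*-cKO on the right.

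Markers of other cell states moved with the litter, and counts of them are of genes called at an adjusted p below 0.05 (edgeR). All 8 genes of cycling cells, among them *Mki67* and *Top2a*, were called higher in litter 2 in both comparisons, with median log2 fold changes of 0.94 in controls and 1.137 in the *Dot1l*-cKO. Their summed level was 724 to 811 CPM in controls and 476 to 693 CPM in the *Dot1l*-cKO of litter 1, and 1529 to 1551 CPM and 1221 to 1330 CPM in litter 2. Of 9 markers of neural progenitors, which share *Fabp7* and *Slc1a3* with the list of Notch targets, 5 were called higher and 1 lower between controls and 6 higher and 1 lower between the *Dot1l*-cKO. Of 10 neuronal markers 0 were called higher, and 2 and 1 were called lower, with 8 of 10 folds negative in each comparison. Of 6 genes of the spinal cord and lumbar level, 3 were called higher between controls, and 1 higher and 1 lower between the *Dot1l*-cKO.

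The markers of vessels moved in controls. Of 10 endothelial markers, 9 were called lower in litter 2 than in litter 1 between controls, where all 10 folds were negative (median -0.50), and 0 between the *Dot1l*-cKO, where 7 were negative (median -0.05). Their summed level was 389 to 438 CPM in the litter 1 controls, 309 to 345 CPM in their *Dot1l*-cKO littermates, and 257 to 314 CPM and 277 to 344 CPM in litter 2. *Dll4* was likewise highest in the litter 1 controls and lowest in the litter 2 controls. *Jag1* and *Notch3*, the other members named for vessels above, were not lower in the litter 2 controls (0.08 and 0.33 on the log2 scale). Mural markers were called lower for 5 of 7 in controls and 3 of 7 in the *Dot1l*-cKO. Dorsal root ganglion markers were called lower for 7 of 10 in controls, where all 10 folds were negative, and called lower for 5 and higher for 1 in the *Dot1l*-cKO. Markers of neural crest glia were called lower for 5 of 6 and 2 of 6. Those of mesenchyme were called lower for 5 of 8 in controls, and lower for 1 and higher for 2 in the *Dot1l*-cKO, where 6 of 8 folds were positive. Of 6 blood markers 3 and 6 were called higher in litter 2, and of 6 markers of microglia and macrophages 1 and 0 were called lower, with 5 and 2 folds negative. No endothelial, mural or glial marker was at 0 in any embryo. The part of these markers in the litter differences of the Notch genes was not tested.

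**Figure D4:**
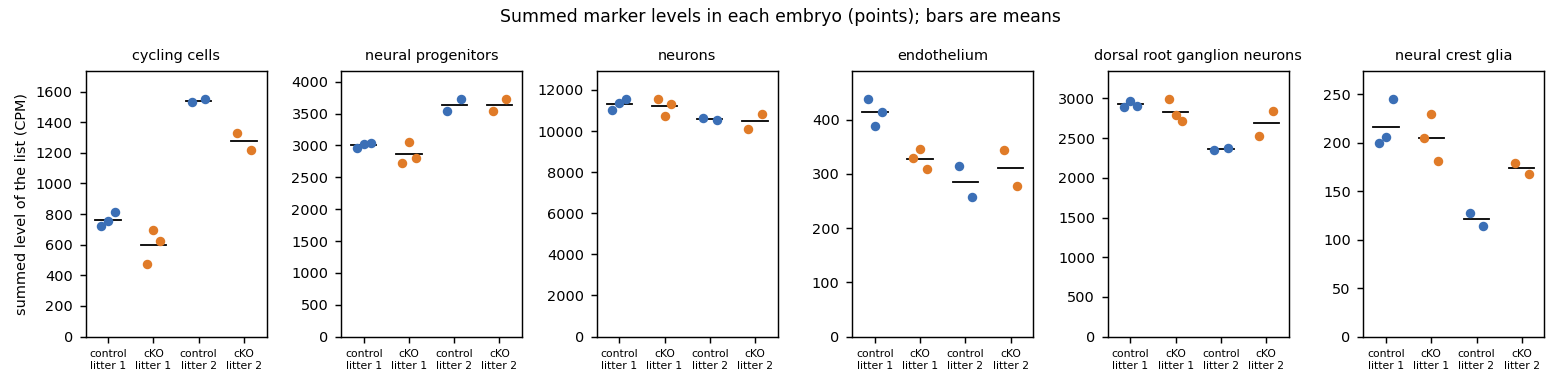
Summed CPM of 6 marker lists (linear axes from 0) in each embryo (points) of the 4 groups of genotype and litter, with group means as bars. The cycling cell genes reach 1221 to 1551 CPM in litter 2 against 476 to 811 CPM in litter 1, and the endothelial genes are highest in the litter 1 controls at 389 to 438 CPM.

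For the genotype over both litters, the cycling cell genes were negative for 8 of 8 (median -0.28), of which 2 were called lower, 1 of 10 neuronal markers was called lower, and 0 of 9 progenitor markers and 0 of 10 endothelial markers were called. Called higher were 1 of 6 markers of neural crest glia and 1 of 6 of blood (*Hbb-bh1*, 0.41 ± 0.09, adjusted p = 0.0348, edgeR). Of 10 dorsal root ganglion markers, 2 were called lower within litter 1 and 1 higher within litter 2, where 1 marker each of neural crest glia and blood was also higher. In litter 1 all 10 endothelial folds were negative (median -0.37), and in litter 2 their median was 0.11, with 0 called in either. All 7 mural folds (median -0.31) and all 8 of mesenchyme (median -0.33) were negative in litter 1 too. In litter 2 their medians were 0.08 and 0.13, again with 0 called. In litter 1, 5 of 10 folds of ganglion markers and 3 of 6 of neural crest glia were negative. The part of these markers in the genotype values of *Jag1*, *Dll4* and the receptors was not tested.

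The rest of the pathway was read from 3 lists. Between the genotypes over both litters, 2 of 29 regulators of ligands and receptors were called, where 2.99% of all genes were, both higher in the *Dot1l*-cKO: *Dtx1*, a Deltex ubiquitin ligase that binds Notch, by 0.48 ± 0.10 (adjusted p = 0.0287, edgeR), and *Neurl1a*, a Neuralized ubiquitin ligase, by 0.41 ± 0.10 (adjusted p = 0.0446). Of 18 genes of the nuclear complex 0 were called. Of 17 tested Hes, Hey and target genes 1 was called, *Id1*, an inhibitor of proneural proteins that is better known as a BMP target, which was higher by 0.84 ± 0.18 (adjusted p = 0.0313). The list medians were -0.01, -0.02 and 0.06 against -0.01 over all genes. Within each litter and in the interaction, 0 genes of the 3 lists passed.

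Between the litters, where 24.2% of all genes were called in controls and 21.3% in the *Dot1l*-cKO, each list had genes called in both directions. Among the 29 regulators, 5 were called higher and 8 lower in litter 2 between controls, and 6 higher and 4 lower between the *Dot1l*-cKO. In controls the smallest p-values belonged to *Dtx4*, higher by 0.50 ± 0.06 (adjusted p = 0.000105, edgeR), *Mib1*, the ubiquitin ligase that lets ligands signal, higher by 0.46 ± 0.08 (adjusted p = 0.00102), and *Rfng*, a Fringe glycosyltransferase, lower with -0.36 ± 0.06 (adjusted p = 0.00130). In the *Dot1l*-cKO they belonged to the other Fringe genes, *Lfng* (0.58 ± 0.09, adjusted p = 0.000712) and *Mfng* (0.70 ± 0.11, adjusted p = 0.000713), and to *Dtx4* (0.38 ± 0.06, adjusted p = 0.000721), all higher. Fringe enzymes add sugars to Notch receptors and change their response to Delta and Jagged ligands.

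Among the 18 genes of the nuclear complex, 4 were called higher and 1 lower between controls, and 6 higher and 1 lower between the *Dot1l*-cKO. *Rbpj*, the DNA-binding partner of Notch, was higher in litter 2 controls by 0.34 ± 0.06 (adjusted p = 0.000870, edgeR), and the corepressor gene *Hdac1* was higher by 0.38 ± 0.07 (adjusted p = 0.00139) and, in the *Dot1l*-cKO, by 0.47 ± 0.07 (adjusted p = 0.000377). The Groucho corepressor gene *Tle2* was lower with -1.18 ± 0.16 (adjusted p = 0.000248) in controls and -0.88 ± 0.15 (adjusted p = 0.00152) in the *Dot1l*-cKO, and *Tle3* was higher by 0.47 ± 0.10 (adjusted p = 0.00615) in the *Dot1l*-cKO.

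Among the 17 other Hes, Hey and target genes, 4 were called higher and 2 lower between controls, and 6 higher and 2 lower between the *Dot1l*-cKO. *Hey2*, a Notch target of arteries, was lower in litter 2 with -1.17 ± 0.11 (adjusted p = 3.22e-05, edgeR) in controls and, in the *Dot1l*-cKO, with -0.73 ± 0.11 (adjusted p = 0.000436). *Slc1a3*, the glutamate transporter of radial glia, was lower with -0.55 ± 0.07 (adjusted p = 0.000211) and -0.72 ± 0.07 (adjusted p = 7.38e-05). One of those called higher, picked after its values were seen, was the proneural gene *Neurog2* (0.79 ± 0.16, adjusted p = 0.00374, and 0.87 ± 0.16, adjusted p = 0.00220).

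For 1 receptor, 1 ligand and 1 target, the genes most like them across the 10 embryos were found by the root mean square difference of centred log2 CPM among 11026 genes with a mean log2 CPM of at least 3. Nearest to *Notch3* were *Zfp516* (0.0361), *Llgl1* (0.0696) and *Cand2* (0.0756), against a median of 0.292 over all compared genes. Nearest to *Dll1* were *Nde1* (0.0590), *Chtf18* (0.0715) and *Fignl2* (0.0759), against a median of 0.426. Nearest to *Hes5* were *Sapcd2* (0.0916) and *Wnt7b* (0.125), against a median of 0.515. All points share the 2 litters.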

How the data were processed

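The authors trimmed the reads with TrimGalore, aligned them to mm10 with STAR and counted them per gene with featureCounts in the default snakePipes workflow; the strand setting is not given in the sources used here. The values used are the deposited raw counts per gene, not normalized. Each column name gives the embryo it belongs to. Of 54146 identifiers, 54079 matched GENCODE release 21 on GRCm38, the same build, without their version; the authors used release 18.

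From these deposited counts, R 4.3.3 with edgeR 4.0.16 (TMM, filterByExpr, quasi-likelihood test at its defaults), DESeq2 1.42.0 and limma 3.58.1 was used. The genotype over both litters came from a model of litter and genotype. The other 5 comparisons came from 1 model of the 4 groups of genotype and litter, in which all 10 embryos share 1 estimate of the spread. P-values were adjusted by Benjamini-Hochberg over 19773 genes, with a threshold of 0.05. A standard error is the size of the log2 fold change divided by the square root of F. CPM was computed after TMM, and levels per kilobase use the summed length of all annotated exons. The members and lists were chosen with earlier results of these data known. Pathway genes were named by the 3 smallest adjusted p-values per list and comparison, among those called. Some genes that these rules name are not reported here. Alternatives were DESeq2's size factors, no expression filter, DESeq2's Wald test, limma-voom, no litter term, *Xist* as a covariate, the embryos of 1 comparison alone, the litter term of the additive model, and each embryo left out.

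Counts were simulated for 19773 genes from a common mean per gene. For each comparison 100 genes were changed by each size, with no other difference between the groups. For the genotype the test recovered 47% of genes changed by 0.4 and 77% of those changed by 0.8 on the log2 scale. It recovered 24% and 55% within litter 2, 2% and 37% for the interaction, and 29% and 62% for the litter in controls. Of the calls made in the simulated counts, 8.15%, 9.2%, 9.3% and 6.19% in the same order were genes simulated without change. No smaller change was simulated, and the shares need not hold where more genes differ, as they do between these litters. Embryos of 1 group and litter were compared in 8 pairs, and none agreed within sampling noise (chi-square of 9.94 to 29.3 per gene), so no pair was taken for a repeat deposit of 1 library.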

Additional observations from a re-analysis of the deposited data

How the results depend on the processing

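The litter differences of *Dll1* and *Hes5* in both comparisons, of *Notch1* and *Notch3* in the *Dot1l*-cKO and of *Dll4* in controls kept their call under all alternatives run for them. The genotype results depended on the filter and the tool. Without the expression filter 35244 genes were tested. There 6 members were called for the genotype over both litters (2201 of all genes) and 4 within litter 1 (1397). Within litter 2 there were 3 (1335), and for the interaction 1, *Jag2* (437). DESeq2's Wald test called 1 member over both litters (1492 of 17980 genes tested) and 2 within litter 1 (637 of 15988). It called 1 within litter 2 (548 of 15324) and 0 for the interaction (92 of 16652). Without the litter term 0 of all genes were called (1935 at an unadjusted p below 0.05, 2 of them members), and with *Xist* as a covariate 42 of all genes and 0 members were called. In fits of the embryos of 1 comparison alone, 12 of 19275 genes tested were called in litter 1, with 0 members. In litter 2, 2 members and 964 of 18786 genes tested were called. With limma-voom 16 of all genes were called within litter 2 and 1 for the interaction. The cause of these shifts was not tested.

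Some small log2 folds changed sign. For the genotype over both litters, *Notch3* was 0.000173 without the filter and 0.0167 without the litter term, and *Dll4* was -0.21 with *Xist* as a covariate. Within litter 2, *Notch1* was 0.00788 without the filter and 0.00320 with its 4 embryos alone, and *Hes1* was 0.00595, 0.00937 and 0.00210 without the filter, with limma-voom and with its 4 embryos alone. *Notch2* was 0.0377 in the litter term of the additive model.

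When embryos were left out one at a time, the members called numbered 0 to 1 for the genotype over both litters (1 without the third *Dot1l*-cKO of litter 1, *Jag2*, higher), 0 to 2 within litter 1 (2 without the second *Dot1l*-cKO of litter 1, *Notch2* and *Jag1*, lower) and 3 to 7 for the litter in controls (3 without the first control of litter 2, and 4 without the second or without the first or the second control of litter 1). Genes called in all ran from 53 to 1377 (without the second *Dot1l*-cKO of litter 2 and the third of litter 1), 2 to 649, 5 to 288 within litter 2, 1 to 126 for the interaction, 2120 to 5142 for the litter in controls and 1624 to 4713 in the *Dot1l*-cKO. For the litter in the *Dot1l*-cKO, 5 to 7 members were called with 1 embryo of litter 1 left out (7 without the second *Dot1l*-cKO). Where an embryo of litter 2 is left out, the lone embryo is assumed to vary like the other groups.

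The folds whose sign depended on 1 embryo ranged, for the genotype over both litters, from -0.0725 to 0.0579 for *Notch3*, from -0.0207 to 0.13 for *Dll4* and from -0.10 to 0.00683 for *Hes1*. Within litter 1 they ranged from -0.19 to 0.16 for *Dll3*, from -0.0770 to 0.22 for *Jag2*, from -0.18 to 0.0141 for *Hes1* and from -0.0704 to 0.23 for *Hes5*. Within litter 2 they ranged from -0.0411 to 0.0442 for *Notch1*, from -0.14 to 0.00661 for *Notch2*, from -0.16 to 0.0309 for *Dll1* and from -0.13 to 0.13 for *Hes1*. The interaction of *Hes1* ranged from -0.0524 to 0.21, the litter difference of *Notch2* in controls from -0.16 to 0.0156 and that of *Dll4* in the *Dot1l*-cKO from -0.15 to 0.0120. No paired analysis was possible because the groups share no embryo numbers, and the litter is in the model. Each member rests on at least 262 reads in every embryo.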
